A study of Homo sapiens with 12 samples.

Results

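Heparan sulfate genes were followed through copper exposure in the Ishikawa and KLE endometrial cancer cell lines. The family held 41 of the 20332 genes in the expression table, and comprised 26 synthesis enzymes, 3 enzymes that edit or cut finished chains and 12 core proteins. Members were chosen by gene symbol alone (the EXT, EXTL, NDST, HS2ST, HS6ST, HS3ST, XYLT, SULF, glypican and syndecan names, with GLCE, B3GAT3, B3GALT6, B4GALT7, HPSE, HSPG2 and AGRN). The family was nevertheless proposed with earlier results of the same libraries known, so counts over its members are a description and carry no test.

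Heparan sulfate is a linear, sulfated sugar chain attached to serine residues of core proteins at the cell surface and in the basement membrane. A linker sugar primes the chain, exostosins polymerise it from alternating glucuronic acid and N-acetylglucosamine, and sulfotransferases with an epimerase then modify it in patches. The resulting sulfation pattern governs which growth factors, chemokines and proteases bind the chain, and in the endometrium surface syndecans and the basement membrane proteoglycan perlecan are among its carriers.

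Ishikawa and KLE are established human endometrial cancer cell lines. Each was exposed to 200 µM copper chloride (CuCl2) for 24 h or left untreated, a group the labels also describe as vehicle, and polyadenylated RNA was sequenced as 150-base read pairs. The 4 groups, with 3 libraries each, were CuCl2-exposed KLE cells, untreated KLE cells, CuCl2-exposed Ishikawa cells and untreated Ishikawa cells. All cells shared DMEM/F12 medium with fetal bovine serum, the labels name no genetic change, and each line stands for 1 tumour. The labels call the replicates biological without saying how the cultures were separated, so p-values measure the spread between these libraries. In bulk RNA, fewer cells of a type and less RNA per cell cannot be told apart.

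Library totals lay between 14050275 and 25057003 counts. Epithelial markers (EPCAM, CDH1, KRT8, KRT18, KRT19 and PAX8) summed to 5866 to 5921 TPM (a level scaled to transcript length and to the library) in CuCl2-exposed KLE, 5099 to 5384 in untreated KLE, 2473 to 2600 in CuCl2-exposed Ishikawa and 3578 to 4019 in untreated Ishikawa libraries. ESR1, the estrogen receptor gene commonly reported for Ishikawa, was at most 0.51 TPM in the 12 libraries, and PGR at most 0.284 TPM, so neither steroid receptor marked the Ishikawa libraries. The sum of 7 stromal fibroblast markers ranged from 15.4 to 32.3 TPM in CuCl2-exposed KLE, 23.1 to 51.1 in untreated KLE, 17.1 to 38.7 in CuCl2-exposed Ishikawa and 7.58 to 30.8 in untreated Ishikawa libraries. One library stood apart in this list: untreated Ishikawa replicate 2 had DCN and LUM at 0 TPM, whereas the other 11 libraries had 4.64 to 32.1 TPM of DCN. The part of these traces in the results below was not tested.

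Copper lowered most of the measured heparan sulfate genes in Ishikawa cells and split them in KLE cells. Of the 27 members with enough counts for the KLE fit, 7 rose, 12 fell and 8 did not pass the test at an adjusted p under 0.05. Over all 13031 genes tested in KLE, 50.8% passed, 25.6% as higher and 25.2% as lower. Of 29 members tested in Ishikawa, 3 rose, 23 fell and 3 did not pass, where 69.1% of 13359 genes passed, 33.8% as higher and 35.3% as lower. The median log2 fold change (CuCl2 over untreated) of the members was -0.11 in KLE and -0.63 in Ishikawa, and that of all genes tested was -0.00 and -0.01. Copper moved so much of the transcriptome in both lines that a call on 1 member was common. In Ishikawa the members' calls were mostly lower ones, where those of all genes were split nearly evenly.

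Large changes were fewer. At a log2 fold change beyond 1 in either direction, 0 members were higher and 4 lower in KLE, where 1.86% and 3.59% of all genes were. In Ishikawa 1 member was higher and 8 were lower at that size, against 7.83% and 8.82% of all genes. The 4 in KLE were HS6ST1, HS6ST3, SULF2 and SDC2, and the 8 in Ishikawa were HS6ST1, HS6ST3, SULF2, XYLT2, EXTL2, NDST2, SDC3 and GPC3.

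**Figure D1:**
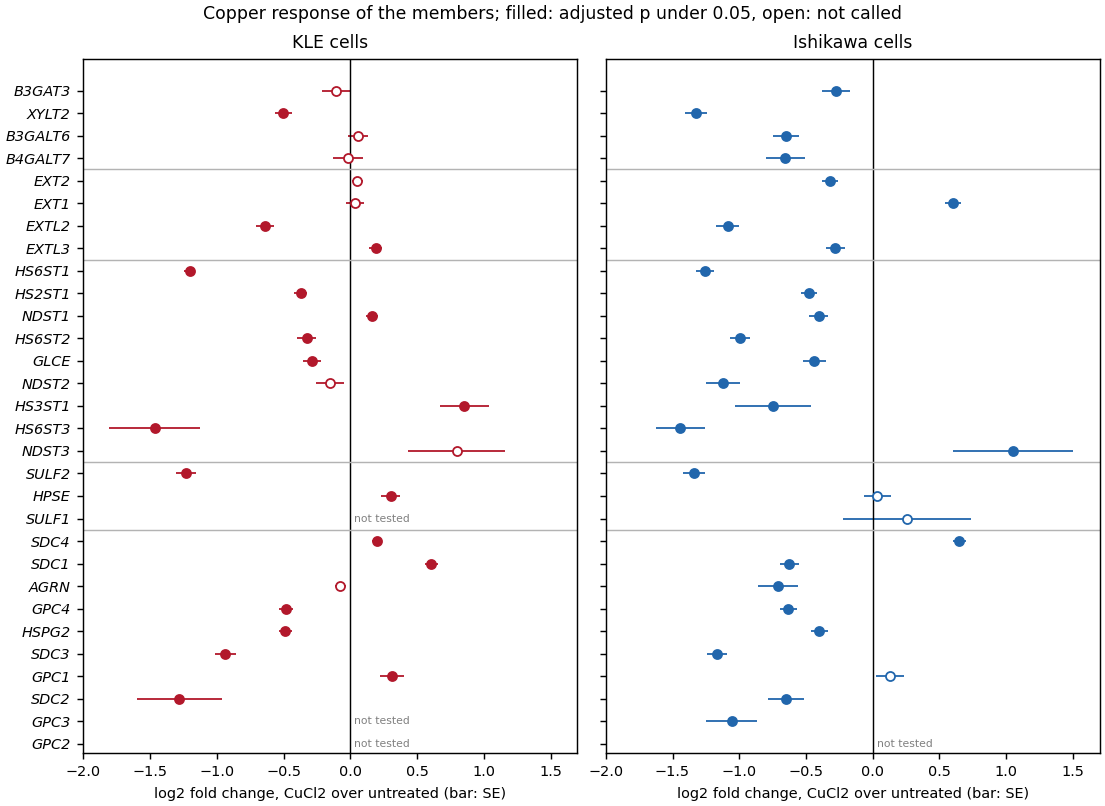
Log2 fold change (x axis, CuCl2 over untreated) with its standard error for each member that passed the count filter, in KLE cells (left) and Ishikawa cells (right); filled points had an adjusted p under 0.05 and horizontal lines part the role classes. HS6ST1, HS6ST3 and SULF2 lie below -1 in both panels, SDC4 lies above 0 in both, and SDC1, HS3ST1, NDST1 and EXTL3 change side between the panels.

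Across the 27 members tested in both lines, 12 fell in both, 1 rose in both, 4 rose in KLE but fell in Ishikawa and 0 did the opposite. Over the 12806 genes tested in both lines these shares were 19.3% lower in both, 18.9% higher in both, 1.54% higher in KLE but lower in Ishikawa and 1.19% the opposite. The 12 that fell in both were EXTL2, GLCE, GPC4, HS2ST1, HS6ST1, HS6ST2, HS6ST3, HSPG2, SDC2, SDC3, SULF2 and XYLT2. SDC4 was the 1 that rose in both, and EXTL3, HS3ST1, NDST1 and SDC1 were the 4 with opposite calls. The direction of the Ishikawa calls was read after edgeR's TMM scaling. Scaling by library totals alone moved the median of all Ishikawa genes to -0.17, with 3370 genes higher and 6068 lower against 4514 higher and 4714 lower under TMM. The 23 members called lower in Ishikawa numbered 23 under that scaling too, and those called higher numbered 2 in place of 3.

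The sequences upstream of 4 genes are shown because their members carry the contrast of shared and opposite responses: SDC4 rose in both lines, SDC1 rose in KLE and fell in Ishikawa, and HS6ST1 and SULF2 fell in both. Each is the 250 bases before a RefSeq transcript start on build GRCh38.p14, read 5′ to 3′ along the gene's strand (minus for all 4). The windows are chr20:45348425-45348674 for SDC4, chr2:20225476-20225725 for SDC1, chr2:128318869-128319118 for HS6ST1 and chr20:47786628-47786877 for SULF2. Capitals mark matches, on either strand, to the metal response element core TGCGCNC or its second form TGCACNC, the antioxidant response element core TGACNNNGC or the heat shock unit GAANNTTC.
SDC4: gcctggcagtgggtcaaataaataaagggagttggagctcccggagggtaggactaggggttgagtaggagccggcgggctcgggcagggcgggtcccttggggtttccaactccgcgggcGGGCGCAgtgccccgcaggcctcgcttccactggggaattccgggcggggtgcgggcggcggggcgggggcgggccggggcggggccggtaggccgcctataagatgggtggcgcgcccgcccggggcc
SDC1: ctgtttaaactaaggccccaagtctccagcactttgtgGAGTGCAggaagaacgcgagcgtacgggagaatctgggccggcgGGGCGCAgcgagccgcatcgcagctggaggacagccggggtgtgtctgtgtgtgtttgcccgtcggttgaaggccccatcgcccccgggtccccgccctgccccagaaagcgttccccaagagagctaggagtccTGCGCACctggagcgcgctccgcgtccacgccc
HS6ST1: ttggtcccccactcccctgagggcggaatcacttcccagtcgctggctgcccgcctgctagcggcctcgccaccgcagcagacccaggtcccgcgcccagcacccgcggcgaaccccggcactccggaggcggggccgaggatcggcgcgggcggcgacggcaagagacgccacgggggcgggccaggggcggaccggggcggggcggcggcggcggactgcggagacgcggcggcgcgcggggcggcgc
SULF2: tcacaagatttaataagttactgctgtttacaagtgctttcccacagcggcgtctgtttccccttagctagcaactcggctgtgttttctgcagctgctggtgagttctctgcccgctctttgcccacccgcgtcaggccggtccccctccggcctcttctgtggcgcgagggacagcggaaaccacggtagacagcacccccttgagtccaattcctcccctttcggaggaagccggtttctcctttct

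The printed SDC4 stretch held 1 metal response element core and the SDC1 stretch 3 matches to its forms, while those of HS6ST1 and SULF2 held none of the 4 motifs. These 4 genes were picked for their response, and not all members with a promoter window followed this contrast. Metal cores also lay near the starts of 4 of the 11 members that fell in both lines and had a promoter window here (GLCE, SDC3, SULF2 and XYLT2). They lay near those of 2 of 3 with opposite calls (HS3ST1 and SDC1) and of 3 of 5 that fell in Ishikawa alone (B3GALT6, B3GAT3 and EXT2). Among members that rose without a fall, they lay near those of 2 of 2 called in KLE alone (GPC1 and HPSE). The same held for 1 of 1 called in Ishikawa alone (NDST3) and 1 of 1 called in both lines (SDC4). The relation between cores and calls was not tested. Starts of 1 gene differed too, since 1 of 2 SDC1 windows and 1 of 4 SULF2 windows held a match. These 300-base windows run from 250 bases before to 50 after each start. Either form occurred in 20 of 45 windows of the 35 members that had a window here, and in 29.6% of all 35116 windows. The median GC content of the 250 bases before the start was 68.8% for the members' windows and 58.0% for all windows. The part of base composition in this difference was not tested. The antioxidant core occurred in 2 of the 45 windows and in 13.3% of all windows, and the heat shock unit in 0 of the 45 and in 6.8% of all. These matches describe letters in the reference genome and do not show binding of a factor.

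Linker enzymes build the tetrasaccharide that heparan sulfate and chondroitin sulfate share. XYLT2 (chr17:50346092-50363138, plus strand), the xylosyltransferase that starts the linker, was the member of this class that fell in both lines. It had 27.5, 27.0 and 27.2 CPM (counts scaled to library size) in CuCl2-exposed KLE libraries, against 38.3, 37.6 and 40.0 CPM in untreated KLE libraries. The corresponding values were 14.8, 16.4 and 15.0 CPM in CuCl2-exposed Ishikawa libraries, against 38.8, 40.6 and 38.6 CPM in untreated Ishikawa libraries. The untreated groups of the lines overlapped (log2 difference -0.03 ± 0.06 SE, KLE over Ishikawa), and no exposed library reached an untreated one. The log2 fold change was -0.50 ± 0.07 (SE, adjusted p = 2.14e-08) in KLE and -1.32 ± 0.08 (adjusted p = 2.07e-09) in Ishikawa, and the difference between the lines' responses was 0.88 ± 0.10 (KLE minus Ishikawa, adjusted p = 1.7e-07). XYLT1, the other xylosyltransferase, had 12 counts over the 12 libraries and was not tested.

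B3GAT3, the glucuronosyltransferase that completes the linker, was on average the most abundant of the class per transcript length, with 17.3 ± 0.5 TPM in CuCl2-exposed KLE, 19.0 ± 2.0 in untreated KLE, 19.2 ± 0.2 in CuCl2-exposed Ishikawa and 26.0 ± 3.5 in untreated Ishikawa libraries (SD, n = 3 each). In KLE its CPM were 12.4, 13.1 and 12.4 with CuCl2, against 12.4, 14.8 and 13.5 untreated, and the groups overlapped. Ishikawa libraries had 14.7, 14.4 and 14.7 CPM with CuCl2, against 15.9, 20.1 and 17.9 untreated, without overlap. Its Ishikawa log2 fold change of -0.28 ± 0.10 passed narrowly (adjusted p = 0.0278) and lost the call in 4 of 6 fits with a library left out, with -0.19 (adjusted p = 0.101) without untreated replicate 2. The galactosyltransferases B4GALT7 and B3GALT6, which add the linker's middle sugars, changed by -0.02 and 0.05 in KLE, where neither was called. Both fell in Ishikawa, by 0.66 and 0.65 on the log2 scale. Their responses differed between the lines by 0.70 ± 0.19 and 0.76 ± 0.12 (adjusted p = 0.00404 and 2.92e-05).

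**Figure D2:**
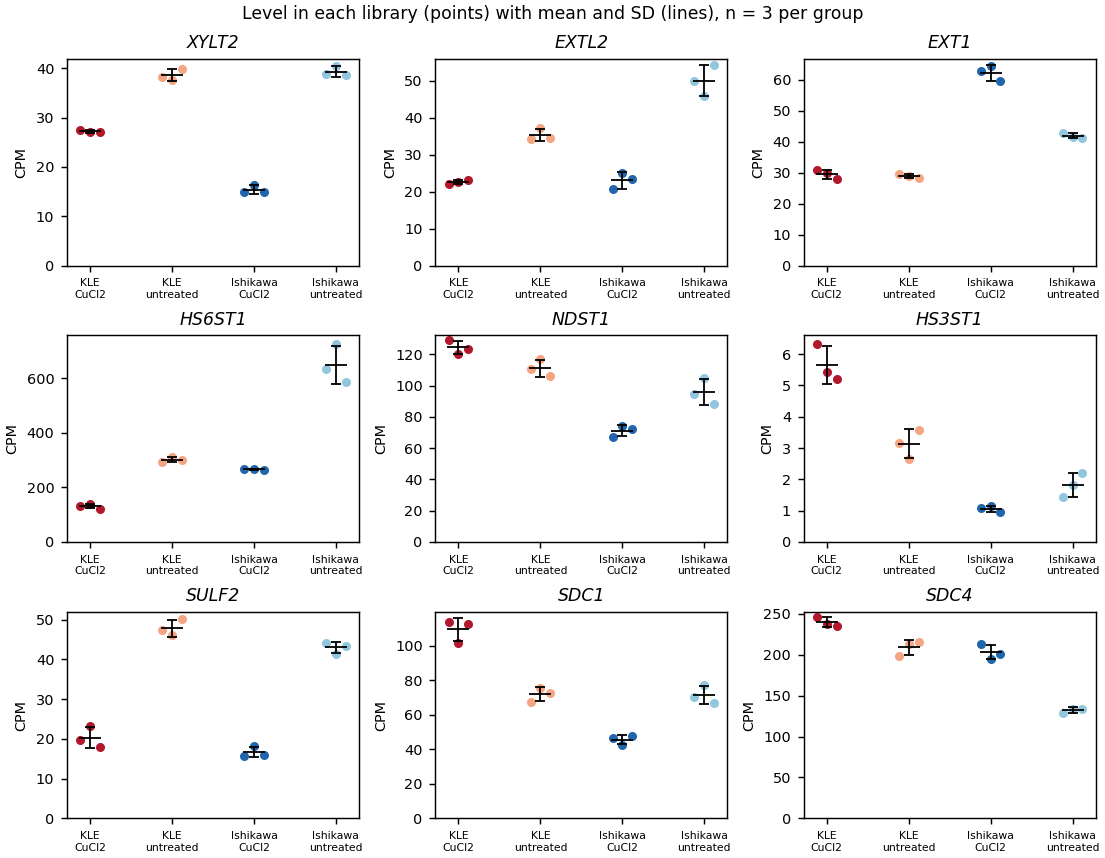
CPM (y axis, from 0) of 9 members in each library, with group mean and SD (n = 3); CuCl2 stands left of untreated within each line. XYLT2, EXTL2, HS6ST1 and SULF2 are lower with CuCl2 in both lines, SDC4 is higher in both, and SDC1, NDST1 and HS3ST1 are higher in KLE and lower in Ishikawa.

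Chain polymerisation showed the most mixed pattern of the synthesis classes. EXT1 and EXT2 form the polymerase complex that extends the chain. EXT2, on average the most abundant member of its class by TPM, had 120.2, 118 and 121 CPM in CuCl2-exposed KLE against 114, 117 and 116 CPM in untreated KLE libraries. In Ishikawa, CuCl2-exposed libraries held 80.0, 79.1 and 79.3 CPM of EXT2, against 99.5, 109.6 and 93.7 CPM in untreated libraries. The small gap in KLE was not called (log2 fold change 0.05 ± 0.04, adjusted p = 0.287), whereas EXT2 fell in Ishikawa by 0.32 ± 0.06 on the log2 scale (adjusted p = 0.000338).

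EXT1 took the other direction from its partner in Ishikawa. It averaged 62.3 ± 2.6 CPM with CuCl2 and 42.0 ± 0.8 CPM untreated in that line (SD, n = 3 each), a log2 rise of 0.60 ± 0.06 (adjusted p = 8.03e-07). In KLE it averaged 29.6 ± 1.4 CPM with CuCl2 and 28.9 ± 0.7 CPM untreated, and was not called. Per transcript length, EXT1 and EXT2 stood at 40.1 ± 1.8 and 39.1 ± 0.3 TPM in CuCl2-exposed Ishikawa cells, against 26.1 ± 1.9 and 53.7 ± 4.6 TPM in untreated Ishikawa cells. The polymerase partners thus came to like transcript levels in the exposed Ishikawa libraries alone, since in KLE EXT2 stayed above EXT1 at 63.0 ± 1.0 and 17.8 ± 1.6 TPM with CuCl2 and at 62.5 ± 1.8 and 17.9 ± 1.8 TPM untreated. The response of EXT1 differed between lines by -0.51 ± 0.09 and that of EXT2 by 0.43 ± 0.07 (KLE minus Ishikawa, adjusted p = 5.99e-05 and 3.54e-05).

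EXTL2 (chr1:100872372-100895998, minus strand), an N-acetylhexosaminyltransferase that acts on the linker and is known to limit chain formation, fell in both lines. KLE libraries had 22.2, 22.6 and 23.3 CPM with CuCl2, against 34.3, 37.3 and 34.4 CPM untreated. Ishikawa libraries had 20.7, 25.0 and 23.4 CPM with CuCl2, against 49.9, 45.9 and 54.2 CPM untreated. The exposed groups of the lines overlapped although the untreated groups did not. The log2 fold change was -0.64 ± 0.07 in KLE and -1.09 ± 0.09 in Ishikawa (adjusted p = 3.25e-10 and 4.55e-08).

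EXTL3, which adds the first N-acetylglucosamine and so commits the linker to heparan sulfate, was called in opposite directions. It had 97.4, 90.6 and 92.6 CPM in CuCl2-exposed KLE against 78.2, 85.0 and 82.7 CPM in untreated KLE libraries. Ishikawa libraries held 54.3, 53.3 and 50.4 CPM with CuCl2, against 63.6, 71.4 and 60.5 CPM untreated. Both shifts were small next to those of EXTL2: 0.19 ± 0.05 in KLE and -0.28 ± 0.07 in Ishikawa on the log2 scale (adjusted p = 0.000772 and 0.00274). The KLE call was lost in a limma fit of log2 TPM, with adjusted p up to 0.101. EXTL1 had 1 count in all.

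HS6ST1 (chr2:128236716-128318577, minus strand), a 6-O-sulfotransferase, fell more than 2-fold in both lines. It led the synthesis enzymes in untreated KLE (145 ± 7 TPM), CuCl2-exposed Ishikawa (121 ± 2 TPM) and untreated Ishikawa libraries (327 ± 43 TPM, SD, n = 3 each). In CuCl2-exposed KLE libraries it stood at 61.7 ± 4.1 TPM beside EXT2 at 63.0 ± 1.0 TPM. CuCl2-exposed KLE libraries had 133, 138 and 122 CPM, against 292, 312 and 301 CPM in untreated KLE libraries. CuCl2-exposed Ishikawa libraries had 267, 269 and 264 CPM, against 634, 727 and 587 CPM in untreated Ishikawa libraries. Exposure thus brought Ishikawa cells below the level of untreated KLE cells, with no overlap between any exposed and untreated group of a line. The fold was 2.30 lower in KLE (log2 fold change -1.20 ± 0.04, adjusted p = 1.28e-23) and 2.39 lower in Ishikawa (-1.26 ± 0.07, adjusted p = 3.89e-09). The test of the difference between the responses gave 0.11 ± 0.09 (adjusted p = 0.336) and was not called, but was called at 0.18 (adjusted p = 0.044) without untreated Ishikawa replicate 3. GENCODE names a processed pseudogene copy, HS6ST1P1, that is no row of the table, and reads it shares with HS6ST1 could not be separated here.

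The other 6-O-sulfotransferases fell with it. HS6ST2 fell by 0.33 ± 0.07 in KLE and by 0.99 ± 0.07 in Ishikawa on the log2 scale (adjusted p = 0.000392 and 1.62e-08), and these responses differed by 0.72 ± 0.11 (adjusted p = 1.17e-05). HS6ST3 was scarce, with 0.62, 0.73 and 0.69 CPM in CuCl2-exposed KLE against 1.40, 2.47 and 1.73 CPM in untreated KLE libraries. In Ishikawa it had 2.29, 3.65 and 2.44 CPM with CuCl2, against 8.16, 7.36 and 7.95 CPM untreated. Its log2 fold change was -1.47 ± 0.34 in KLE, from 31 against 88 counts in all, and -1.44 ± 0.18 in Ishikawa, from 132 against 451 counts (adjusted p = 0.000399 and 6.11e-06). All 3 genes of the 6-O-sulfation step were therefore lower in both lines.

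Epimerisation and 2-O-sulfation enzymes fell in both lines too. GLCE, the epimerase that turns glucuronic into iduronic acid, fell by 0.29 ± 0.07 in KLE and by 0.44 ± 0.09 in Ishikawa on the log2 scale. HS2ST1, which sulfates iduronic acid at the 2-O position, fell by 0.37 ± 0.05 in KLE and by 0.48 ± 0.06 in Ishikawa. HS2ST1 overlaps another protein-coding gene of the table on the same strand, and how the authors' counting treated reads in the overlap is not given in the sources used here.

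N-deacetylase/N-sulfotransferases start the modification of the chain, and their members differed. NDST1 (chr5:150485818-150558211, plus strand), the most abundant of them, had 129, 120.5 and 124 CPM in CuCl2-exposed KLE against 111, 117 and 106 CPM in untreated KLE libraries. Ishikawa libraries had 67.3, 74.1 and 71.9 CPM with CuCl2, against 94.8, 105 and 87.9 CPM untreated. NDST1 was hence called higher in KLE and lower in Ishikawa, with log2 fold changes of 0.16 ± 0.04 and -0.41 ± 0.07 (adjusted p = 0.00168 and 9.24e-05) and a difference of 0.63 ± 0.08 (adjusted p = 2.07e-06).

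NDST2 had 10.9, 12.6 and 13.1 CPM in CuCl2-exposed KLE against 13.97, 14.4 and 12.3 CPM in untreated KLE libraries, and these overlapped. In Ishikawa it had 6.93, 6.70 and 6.74 CPM with CuCl2, against 14.4, 17.4 and 13.2 CPM untreated. It fell in Ishikawa by 1.12 ± 0.13 on the log2 scale (adjusted p = 2e-06), was not called in KLE (-0.16 ± 0.11), and the responses differed by 1.03 ± 0.17 (adjusted p = 2.97e-05). NDST2 also shares its strand with an overlapping gene of the table.

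NDST3 was the 1 sulfotransferase that rose in Ishikawa, at the margin of the test and of detection. It had 0.72, 1.61 and 0.74 CPM with CuCl2 in Ishikawa, against 0.46, 0.34 and 0.78 CPM untreated, and the groups overlapped. CuCl2-exposed KLE libraries had 1.30, 1.39 and 1.03 CPM, against 0.91, 0.72 and 0.51 CPM in untreated KLE libraries. The Ishikawa log2 fold change of 1.05 ± 0.45 (adjusted p = 0.0484) was 0.55 (adjusted p = 0.36) without CuCl2 replicate 2, and the KLE change of 0.80 ± 0.37 was not called (adjusted p = 0.0661). NDST4 had 2 counts in all.

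HS3ST1 (chr4:11393150-11429765, minus strand), a 3-O-sulfotransferase known for making the antithrombin-binding site, rose in KLE and fell in Ishikawa. CuCl2-exposed KLE libraries had 6.33, 5.41 and 5.21 CPM, against 3.16, 2.65 and 3.59 CPM in untreated KLE libraries. CuCl2-exposed Ishikawa libraries had 1.08, 1.14 and 0.96 CPM, against 1.44, 1.83 and 2.21 CPM in untreated Ishikawa libraries. Neither line's groups overlapped. The log2 fold change was 0.85 ± 0.18 in KLE and -0.75 ± 0.29 in Ishikawa (adjusted p = 0.00014 and 0.0309). The Ishikawa change rests on 50 against 107 counts and kept its call in 1 of 6 fits with a library left out, with -0.61 (adjusted p = 0.115) without untreated replicate 3. The difference between the responses was 1.66 ± 0.32 (adjusted p = 0.000209).

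The remaining 3-O-sulfotransferases were close to silent. HS3ST2, HS3ST3A1, HS3ST4, HS3ST5 and HS3ST6 had 2 to 6 counts each over the 12 libraries. HS3ST3B1 had 4 counts in CuCl2-exposed KLE and 2 in untreated KLE libraries, and 29 counts in CuCl2-exposed Ishikawa and 10 in untreated Ishikawa libraries, too few for the filter.

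Sulfatases of the SULF family remove 6-O-sulfates from finished chains outside the cell. SULF2 (chr20:47656348-47786616, minus strand) fell in both lines alongside the 6-O-sulfotransferases. It had 19.8, 23.3 and 17.9 CPM in CuCl2-exposed KLE against 47.4, 46.0 and 50.2 CPM in untreated KLE libraries. Ishikawa libraries had 15.8, 18.1 and 16.0 CPM with CuCl2, against 44.2, 41.4 and 43.4 CPM untreated. The untreated lines were not called different (log2 difference 0.15 ± 0.07, KLE over Ishikawa, adjusted p = 0.0939), and the exposed groups overlapped. The fold was 2.35 lower in KLE and 2.53 lower in Ishikawa (log2 fold change -1.23 ± 0.07 and -1.34 ± 0.08, adjusted p = 1.7e-16 and 2.19e-09), with a difference of 0.16 ± 0.12 (adjusted p = 0.293). SULF2 overlaps NCOA3 on the opposite strand, and the strand setting of the counting is not given in the sources used here.

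SULF1 was scarce, with 15 counts in CuCl2-exposed KLE and 19 in untreated KLE libraries, 45 in CuCl2-exposed Ishikawa and 46 in untreated Ishikawa libraries. It was tested in Ishikawa only and not called. HPSE, the heparanase that cuts the chain, rose in KLE by 0.30 ± 0.07 on the log2 scale (adjusted p = 0.000423), with 30.8 ± 0.6 CPM with CuCl2 and 25.0 ± 1.7 CPM untreated (SD, n = 3 each). In Ishikawa it averaged 14.2 ± 0.9 CPM with CuCl2 and 14.2 ± 0.8 CPM untreated.

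Core proteins were dominated by syndecan-4 and syndecan-1 in KLE. SDC4 (chr20:45325288-45348424, minus strand), a transmembrane syndecan of focal adhesions, was the most abundant core protein gene in each group and rose in both lines. CuCl2-exposed KLE libraries had 246, 238 and 236 CPM, against 199, 213 and 215 CPM in untreated KLE libraries. CuCl2-exposed Ishikawa libraries had 213, 195 and 201 CPM, against 128, 134 and 134 CPM in untreated Ishikawa libraries. Exposed Ishikawa libraries overlapped untreated KLE libraries. The rise was 1.15-fold in KLE (log2 0.20 ± 0.04, adjusted p = 1.23e-05) and 1.57-fold in Ishikawa (0.65 ± 0.05, adjusted p = 2.64e-08), and the responses differed by -0.39 ± 0.06 (KLE minus Ishikawa, adjusted p = 2.17e-05).

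SDC1 (chr2:20200797-20225433, minus strand), the syndecan of epithelial cell surfaces, overlapped between the untreated lines and parted with copper. It had 114, 102 and 112 CPM in CuCl2-exposed KLE against 67.3, 75.3 and 72.7 CPM in untreated KLE libraries. Ishikawa libraries had 46.2, 42.6 and 47.8 CPM with CuCl2, against 70.3, 77.2 and 66.9 CPM untreated. The untreated groups overlapped (log2 difference 0.00 ± 0.06, KLE over Ishikawa, adjusted p = 0.996), and the exposed groups did not. SDC1 rose 1.52-fold in KLE and fell 1.54-fold in Ishikawa (log2 fold change 0.61 ± 0.05 and -0.63 ± 0.07, adjusted p = 3e-13 and 2.02e-06). The difference of 1.29 ± 0.09 (adjusted p = 1.44e-10) had the smallest adjusted p of the 30 members tested for it. Epithelial markers moved in the same sense, with 3 of 6 higher and 1 lower in KLE and 0 higher and 5 lower in Ishikawa, and their part in the SDC1 result was not tested. Of all genes tested, 25.6% were higher and 25.2% lower in KLE, and 33.8% higher and 35.3% lower in Ishikawa.

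The other syndecans fell in both lines. SDC3 had 15.6, 18.5 and 17.8 CPM in CuCl2-exposed KLE against 31.2, 35.8 and 32.1 CPM in untreated KLE libraries. In Ishikawa it had 35.0, 36.2 and 35.8 CPM with CuCl2, against 81.1, 89.9 and 73.3 CPM untreated. Its log2 fold change was -0.94 ± 0.08 in KLE and -1.17 ± 0.08 in Ishikawa (adjusted p = 3.53e-13 and 4.33e-09). Exposed Ishikawa libraries thus overlapped untreated KLE libraries.

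SDC2, the syndecan of mesenchymal cells, was nearly absent in KLE, with 0.68, 1.06 and 0.75 CPM with CuCl2 against 2.25, 1.81 and 2.05 CPM untreated. Ishikawa libraries had 7.59, 11.7 and 10.3 CPM with CuCl2, against 15.4, 16.4 and 15.3 CPM untreated. It fell in both lines, by 1.28 ± 0.32 in KLE, from 38 against 94 counts, and by 0.65 ± 0.13 in Ishikawa on the log2 scale (adjusted p = 0.000804 and 0.00056).

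Glypicans are anchored to the membrane by a lipid. GPC4 was the leading one and fell in both lines, by 0.48 ± 0.05 in KLE and 0.63 ± 0.06 in Ishikawa on the log2 scale (adjusted p = 9.05e-10 and 4.41e-07). GPC1 rose in KLE by 0.31 ± 0.09 (adjusted p = 0.00478) and was not called in Ishikawa (0.13 ± 0.11, adjusted p = 0.282). Without untreated Ishikawa replicate 2 it was called there as higher (0.26, adjusted p = 0.0133), and without untreated Ishikawa replicate 3 it stood at 0.05. The difference between the responses was not called either (0.24 ± 0.14, adjusted p = 0.177). It was called in the limma fits on log2(TPM + 0.1) and log2(TPM + 1), at 0.55 and 0.504 (adjusted p = 0.0248 and 0.0258).

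GPC3 had 0.37, 0.59 and 0.55 CPM in CuCl2-exposed KLE against 0.42, 0.84 and 0.96 CPM in untreated KLE libraries, too few for the test in KLE. In Ishikawa it had 2.29, 2.45 and 1.85 CPM with CuCl2, against 4.70, 4.73 and 4.67 CPM untreated, and fell by 1.06 ± 0.19 on the log2 scale (adjusted p = 0.000168). GPC2 had 12 counts in CuCl2-exposed KLE and 29 in untreated KLE libraries, and 6 in CuCl2-exposed Ishikawa and 50 in untreated Ishikawa libraries, and was tested in neither line. GPC5 and GPC6 had 1 and 6 counts in all.

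The secreted basement membrane proteoglycans were both present. HSPG2, which encodes perlecan, had 63.0, 66.1 and 62.6 CPM in CuCl2-exposed KLE against 85.5, 91.9 and 91.2 CPM in untreated KLE libraries. Ishikawa libraries had 139, 143 and 135 CPM with CuCl2, against 188, 204 and 168 CPM untreated. Its log2 fold changes of -0.49 ± 0.05 in KLE and -0.40 ± 0.06 in Ishikawa (adjusted p = 3.02e-11 and 6.17e-05) differed by -0.03 ± 0.08 (adjusted p = 0.783). HSPG2 overlaps LDLRAD2 on the opposite strand. AGRN, which encodes agrin, averaged 207 ± 4 CPM with CuCl2 and 218 ± 15 CPM untreated in KLE, where it was not called, and 154 ± 7 CPM with CuCl2 and 257 ± 51 CPM untreated in Ishikawa (SD, n = 3 each), where it fell by 0.71 ± 0.15 on the log2 scale (adjusted p = 0.00742). Without untreated KLE replicate 1 AGRN was called lower in KLE as well (-0.13, adjusted p = 0.00627).

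**Figure D3:**
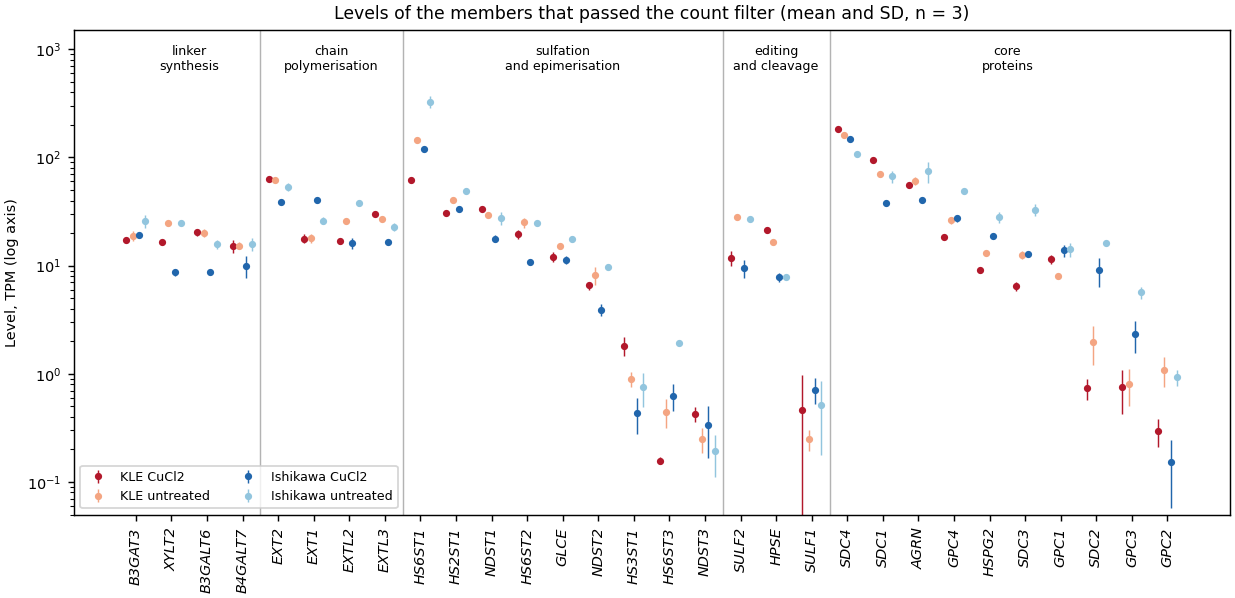
Mean TPM (y axis, log scale) with SD (n = 3) of the 30 members that passed the count filter over all 12 libraries, grouped by role and ordered by mean level within a class; a bar that leaves the axis reaches below 0.05 TPM. SDC4 leads the core proteins in each group and HS6ST1 the synthesis enzymes in all but CuCl2-exposed KLE cells, and SDC2 and GPC3 show the widest gap between the lines.

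Synthesis enzymes and core proteins were then set side by side. In KLE, 3 of 17 tested synthesis enzymes rose and 7 fell, against 3 higher and 4 lower among 8 core proteins, with median log2 fold changes of -0.11 and -0.28. In Ishikawa, 2 of 17 synthesis enzymes rose and 15 fell, against 1 higher and 7 lower among 9 core proteins, with medians of -0.65 and -0.63. Over all genes tested, 25.6% were higher and 25.2% lower in KLE, and 33.8% higher and 35.3% lower in Ishikawa. Members of both classes lay on either side of 0 in KLE, from -1.47 to 0.85 for synthesis enzymes and from -1.28 to 0.61 for core proteins. The difference between the classes was not tested. Within synthesis, the Ishikawa medians were -0.65 for linker enzymes, -0.30 for polymerising enzymes and -0.75 for sulfation and epimerisation enzymes, against KLE medians of -0.06, 0.04 and -0.29.

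Summed transcript levels weight each member by its abundance. Synthesis enzymes summed to 363 ± 13 TPM in CuCl2-exposed KLE and 477 ± 19 TPM in untreated KLE, and to 358 ± 11 TPM in CuCl2-exposed Ishikawa and 683 ± 56 TPM in untreated Ishikawa libraries (SD, n = 3 each). Core proteins summed to 382 ± 5 TPM in CuCl2-exposed KLE and 357 ± 17 TPM in untreated KLE, and to 311 ± 2 TPM in CuCl2-exposed Ishikawa and 396 ± 37 TPM in untreated Ishikawa libraries. The synthesis sum was therefore lower with copper in both lines, and the core sum was lower in Ishikawa and not in KLE. TPM carry no TMM scaling. On log2(TPM + 1) the median change of all genes tested was -0.025 in KLE and -0.166 in Ishikawa. The part of this shift in the sums was not tested.

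The ratio of the synthesis sum to the core sum was 0.98, 0.95 and 0.93 in CuCl2-exposed KLE against 1.35, 1.34 and 1.32 in untreated KLE libraries. It was 1.13, 1.19 and 1.13 in CuCl2-exposed Ishikawa against 1.71, 1.71 and 1.76 in untreated Ishikawa libraries. Every exposed library lay below every untreated library of its line. HS6ST1 made up 16.8, 17.9 and 16.2% of the synthesis sum in CuCl2-exposed KLE against 30.1, 30.5 and 30.8% in untreated KLE libraries, and 34.1, 33.1 and 33.7% in CuCl2-exposed Ishikawa against 47.7, 50.3 and 45.6% in untreated Ishikawa libraries. Without HS6ST1 the ratio was 0.79 ± 0.02 in CuCl2-exposed KLE and 0.93 ± 0.02 in untreated KLE, and 0.76 ± 0.03 in CuCl2-exposed Ishikawa and 0.90 ± 0.05 in untreated Ishikawa libraries, so a smaller gap of the same direction was left. No test was made of these sums, since the members were chosen with results known.

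**Figure D4:**
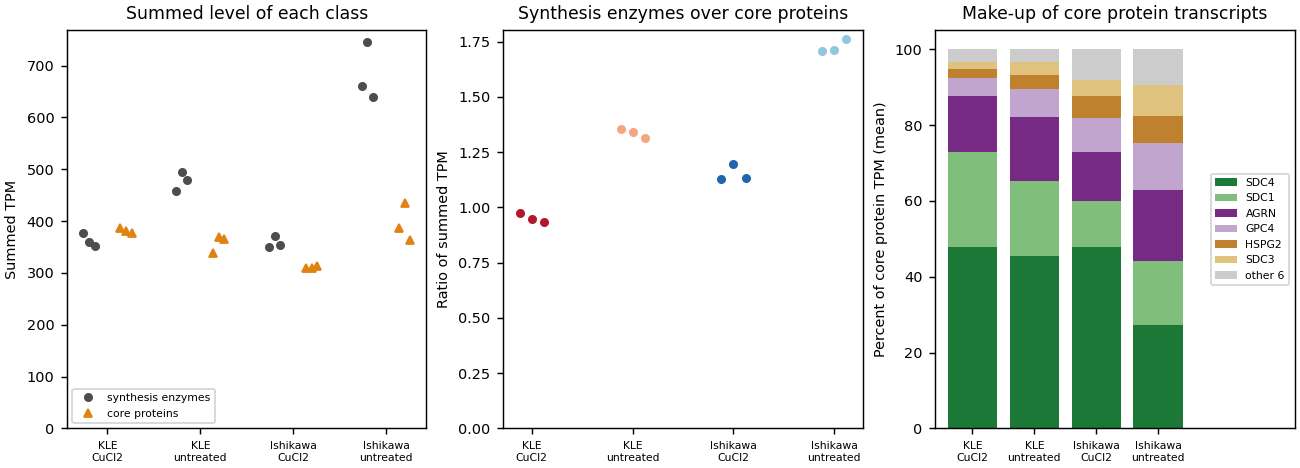
Left, summed TPM of the 26 synthesis enzymes (circles) and 12 core proteins (triangles) in each library; centre, their ratio; right, mean share of the core protein sum for 6 core proteins and for the other 6 together. The ratio is 0.93 to 0.98 in CuCl2-exposed KLE and 1.13 to 1.19 in CuCl2-exposed Ishikawa libraries, below the untreated libraries of the same line, and the SDC4 share is higher with CuCl2 in Ishikawa.

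The make-up of the core proteins also shifted. SDC4 made up 49.0, 47.4 and 47.1% of the core sum in CuCl2-exposed KLE against 44.8, 45.0 and 46.8% in untreated KLE libraries, and 49.6, 46.4 and 47.1% in CuCl2-exposed Ishikawa against 26.6, 25.7 and 29.6% in untreated Ishikawa libraries. The lines thus differed in their SDC4 share before exposure and overlapped after it. SDC1 made up 25.0 ± 1.0% in CuCl2-exposed KLE and 19.6 ± 1.1% in untreated KLE, and 12.3 ± 0.8% in CuCl2-exposed Ishikawa and 16.9 ± 1.9% in untreated Ishikawa libraries (SD, n = 3 each).

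Tests of the difference between the copper responses were called for 17 of 30 members, 15 of them with a higher value in KLE and 2 with a lower one, against 45.4% of 13663 genes called, 24.6% higher and 20.8% lower. At a difference beyond 1, 3 members (SDC1, HS3ST1 and NDST2) were higher and 0 lower, against 3.15% and 3.73% of all genes. The 2 lower ones were EXT1 and SDC4, the genes that rose more in Ishikawa. Among the 15 were 10 of 17 synthesis enzymes and 4 of 10 core proteins, with medians over the tested members of 0.50 and 0.26, against 0.03 over all genes. The split of all called genes, 54.1% higher in this fit, depended on the fit. It was 47.9% with RLE size factors, 63.9% with library totals, 48.9% with no count filter, 46.1% with DESeq2 and 65.4% with limma on log2(TPM + 1), where the measure and the genes tested changed as well. The members called higher numbered 12, 17, 12, 12 and 18 in these fits, in that order, and those called lower 2 in each.

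Untreated KLE cells held less of most core protein genes. Of 30 members tested, 7 were higher and 12 lower in KLE than in Ishikawa, where 50.0% of 13663 genes were called, 24.5% higher and 25.6% lower. Among 10 core proteins, 1 was higher and 6 lower in KLE, with a median log2 difference of -0.80, and among 17 synthesis enzymes 5 were higher and 6 lower, with a median of -0.03. At a log2 difference beyond 1, 0 members were higher and 6 lower, against 5.52% and 5.15% of all genes. SDC2 was 7.74-fold, GPC3 6.22-fold, SDC3 2.47-fold and HSPG2 2.09-fold lower in KLE (log2 difference -2.95 ± 0.17, -2.64 ± 0.27, -1.31 ± 0.08 and -1.06 ± 0.06). HS6ST3 and HS6ST1 were 4.14-fold and 2.16-fold lower in KLE (-2.05 ± 0.21 and -1.11 ± 0.06), each of these 6 with an adjusted p of at most 1.91e-08. SDC4 and HPSE were higher in KLE, by 0.66 ± 0.04 and 0.82 ± 0.08 on the log2 scale (adjusted p = 1.21e-11 and 1.61e-08). These comparisons share the untreated libraries with the copper responses above.

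Genes around the pathway were described from 6 lists. Beside each count below stand the shares of all genes tested: 50.8% called in KLE (25.6% higher, 25.2% lower) and 69.1% in Ishikawa (33.8% higher, 35.3% lower). No list was tested as a set. Of 13 tested genes for precursors and sulfate donors, 1 rose and 4 fell in KLE, and 1 rose and 7 fell in Ishikawa. PAPSS2, a synthase of the universal sulfate donor, fell by 0.46 ± 0.15 in KLE and 1.16 ± 0.18 in Ishikawa on the log2 scale, and PXYLP1, the phosphatase that releases the linker for elongation, by 0.84 ± 0.09 and 1.15 ± 0.08. UGDH, which makes the glucuronic acid donor, rose in Ishikawa by 0.90 ± 0.06 (adjusted p = 7.52e-09).

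Chondroitin and dermatan sulfate synthesis, which uses the same linker, had 1 gene higher and 4 lower of 15 in KLE, and 3 higher and 7 lower of 15 in Ishikawa. CHST3, a chondroitin 6-O-sulfotransferase, fell in both lines, by 1.06 ± 0.23 in KLE and 1.16 ± 0.15 in Ishikawa. Lysosomal heparan sulfate degradation had 1 higher and 1 lower of 8 in KLE, and 1 higher and 4 lower of 8 in Ishikawa. NAGLU, a lysosomal glucosaminidase, fell in Ishikawa by 1.14 ± 0.21 (adjusted p = 0.000258), and IDS, the iduronate sulfatase, rose in KLE by 0.43 ± 0.04 (adjusted p = 7.92e-11).

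Enzymes that shed or release core proteins (4 proteases and the phospholipase GPLD1) had 0 higher and 3 lower of 5 in KLE, and 1 higher and 2 lower of 5 in Ishikawa. MMP14, a membrane protease that cleaves syndecan-1, fell by 1.04 ± 0.07 in KLE and 1.83 ± 0.08 in Ishikawa (adjusted p = 3.24e-16 and 9.75e-11). Other carriers had 2 higher and 1 lower of 4 in KLE, and 1 higher and 1 lower of 3 in Ishikawa. CD44, whose longer splice forms can carry heparan sulfate, averaged 672 CPM with CuCl2 and 379 CPM untreated in KLE, and 105 CPM with CuCl2 and 51.2 CPM untreated in Ishikawa, a log2 rise of 0.83 ± 0.03 and 1.06 ± 0.06.

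Ligands listed as binding the chain had 5 higher and 4 lower of 10 in KLE, and 6 higher and 3 lower of 10 in Ishikawa. How strongly each binds the chain was not measured here. HBEGF, a heparin-binding growth factor, rose by 1.12 ± 0.05 in KLE and 0.52 ± 0.13 in Ishikawa on the log2 scale. FGF2, which needs heparan sulfate to engage its receptor, rose by 0.70 ± 0.12 in KLE and 1.76 ± 0.24 in Ishikawa. The largest Ishikawa rises of this list were 5.90 ± 0.52 for FGF1 and 5.23 ± 0.09 for CXCL8. FGF1 averaged 2.43 CPM with CuCl2 and 0.03 CPM untreated there, and CXCL8 107 and 2.91 CPM. FGF19 and midkine (MDK) fell in both lines, by 2.56 ± 0.07 and 0.98 ± 0.05 in KLE and by 1.23 ± 0.08 and 0.54 ± 0.06 in Ishikawa.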

How the data were processed

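Counts and TPM for 20332 genes came from the deposited tables of 12 libraries. Build GRCh38.p14 and the tools HISAT2 2.1.0, Bowtie2 2.2.8, RSEM, fastp 0.18.0, R 4.2.2 and DESeq2 are named per the submitters' processing notes. The strand setting of the counting is not given in the sources used here. Expected counts deposited by the authors were estimates, not whole numbers for 12.8 to 14.1% of genes, and the deposited whole counts equal them rounded. The authors' values named FPKM in one set of tables are TPM per the file headers. Genes without a symbol (617, at most 0.207% of counts) were kept, and entered the tests and the adjustment where they passed the count filter.

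Whole counts were fitted with edgeR 4.0.16 (R 4.3.3): filterByExpr, TMM factors, a quasi-likelihood F test and Benjamini-Hochberg adjustment over all tested genes, within each line for copper and over all 12 libraries for the difference between responses and for the untreated lines. A standard error is the absolute log2 fold change divided by the square root of F. CPM printed per library use TMM factors over all 12 libraries, so their ratios differ slightly from the fitted fold changes. TPM were used to compare levels between genes. Gene coordinates are from GENCODE 29 (GRCh38). Upstream sequences are RefSeq's. Alternatives used limma 3.58.1, limma-voom and DESeq2 1.42.0, other scalings and filters, and each library left out. The tests were checked on simulated counts. Replicates differed by more than counting noise (chi-square per gene 2.05 to 12.8). Untreated Ishikawa replicate 2 gave 8.45 with replicate 1 and 12.8 with replicate 3, and no other pair exceeded 3.95.

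Members, gene lists and tests were chosen with earlier results of these data known. Per-library values are given for members called at a log2 fold change beyond 1 in either direction in any comparison, called in opposite directions in the lines, or most abundant in their class; up to 2 called genes per list, direction and line, with HBEGF and FGF2, could be named beside them. Protein sequences were not used here.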

Additional observations from a re-analysis of the deposited data

Results flagged for a closer look

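For 17 members the copper response differed between the lines in the test of the difference itself (edgeR, KLE minus Ishikawa, adjusted p under 0.05), which is near the share of all genes called for such a difference (45.4%). Among linker enzymes the differences were 0.88 for XYLT2, 0.76 for B3GALT6 and 0.70 for B4GALT7 on the log2 scale. Among polymerising enzymes they were 0.43 for EXT2, 0.50 for EXTL2, 0.53 for EXTL3 and -0.51 for EXT1. Among sulfotransferases they were 1.66 for HS3ST1, 1.03 for NDST2, 0.72 for HS6ST2 and 0.63 for NDST1. HPSE differed by 0.33. Among core proteins the differences were 1.29 for SDC1, 0.69 for AGRN, 0.29 for SDC3, 0.21 for GPC4 and -0.39 for SDC4. GPC4, HPSE and SDC3 lost their call in fits with a library left out and in other alternatives. Their lowest such values were 0.10 for GPC4 without Ishikawa CuCl2 replicate 3 (and 0.12 without KLE untreated replicate 1), 0.22 for HPSE without Ishikawa CuCl2 replicate 2 and 0.21 for SDC3 without KLE untreated replicate 1. SDC1 and HS3ST1 stand out by size, and each pairs a rise in KLE with a fall in Ishikawa.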

How the results depend on the processing

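Of the members called, 19 of 19 in KLE, 23 of 26 in Ishikawa, 14 of 17 for the difference between responses and 19 of 19 between untreated lines were called in every fit with 1 library left out. In the other alternatives at the same threshold, 18, 23, 14 and 16 of them were called in every fit that held them. HS6ST3 in KLE is among the 18, but its level was below the filter of the limma fits on TPM, so it was not fitted there. The 16 for untreated lines also counts the replicate block fit, which does not give the line difference there. The exceptions were EXTL3 (KLE), B3GAT3, HS3ST1 and NDST3 (Ishikawa), GPC4, HPSE and SDC3 (difference), and B3GAT3, HS3ST1 and NDST1 (untreated). The cause was not tested.

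With a log2 fold change beyond 1 required in either direction, 0 members were higher and 4 lower in KLE, 1 higher and 8 lower in Ishikawa, 3 higher and 0 lower for the difference, and 0 higher and 6 lower between untreated lines. The Ishikawa median of synthesis enzymes became -0.81 with library totals and -0.45 with no count filter. The Ishikawa median of core proteins became -0.74 with upper-quartile factors, -0.79 with library totals and -0.80 or -0.82 with limma on log2(TPM + 1) or log2(TPM + 0.1). In KLE the core median became -0.48 with no count filter, and the synthesis median ranged from -0.137 to -0.041 with a library left out. Medians with no count filter also cover members with too few counts for the main fit, so the genes behind them changed as well.

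Reversals of sign concerned members that were not called. In Ishikawa GPC1 became -0.024 with library totals and -0.026 and -0.028 on the TPM scales. HPSE became -0.078 with upper-quartile factors, -0.12 with library totals, -0.016 and -0.018 on the TPM scales, -0.022 in the fit of all 12 libraries, and -0.025 to 0.092 with a library left out, and SULF1 ranged from -0.59 to 0.55. In KLE EXT1 became -0.009 with upper-quartile factors and -0.009 and -0.010 on the TPM scales, B4GALT7 ranged from -0.103 to 0.034 and B3GALT6 from -0.008 to 0.121 with a library left out. The HSPG2 difference became 0.036 with library totals, 0.073 and 0.055 on the TPM scales, and ranged from -0.105 to 0.042 with a library left out. Between untreated lines SDC1 became -0.001 with RLE factors, -0.003 with CPM above 1 and with limma-voom, -0.010 with upper-quartile factors, -0.036 with library totals, and ranged from -0.046 to 0.062 with a library left out.

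Deviations of same-numbered libraries correlated at 0.09, 0.21 and 0.10 in Ishikawa, against -0.171 to 0.085 for libraries of other numbers. In KLE these were -0.12, -0.03 and -0.12, against -0.003 to 0.113. Such weak correlations cannot decide whether a shared number marks a shared culture or day. With a replicate block, 7 members were higher and 12 lower in KLE, and 2 higher and 22 lower in Ishikawa. Between untreated lines this fit set KLE replicate 3 against Ishikawa replicate 1, since the blocks lay within the lines. Its values there, such as 0.026 for XYLT2, are therefore not the line difference adjusted for replicate.

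Depth limits what can be said of 14 members in KLE and 12 in Ishikawa that did not pass the count filter.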
